A study of Drosophila melanogaster with 2 samples.

Results

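Of 6153 reproducible peak summits of the tagged transcription factor Cnc, 1304 (21.2%, exact 95% interval 20.2 to 22.2) lay between the start sites of divergent protein-coding genes. They were chosen by position only. A summit counted when a start site on the minus strand lay to its left and a start site on the plus strand to its right, both within 1000 bp, by the Ensembl gene models of the fly. The 1304 divergent summits fell between 1233 pairs of start sites, which belonged to 1189 gene pairs and 2446 genes. In 1050 cases no further coding start site lay between the pair, and in 254 cases at least 1 did. An exon of some gene covered 227 of the summits.

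Cnc (cap'n'collar) is a basic leucine zipper factor of the family that includes Nrf2 in mammals. It binds DNA with a small Maf partner, and Keap1 restrains it in the absence of stress. Divergent pairs are genes that lie head to head and are transcribed away from each other, so that 1 short stretch of DNA serves as the promoter region of both. They are frequent in the compact fly genome, and many hold housekeeping genes. The DNA replication-related element (DRE), bound by DREF, and the overlapping core site of the insulator protein BEAF-32 are sequences known from fly housekeeping promoters.

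The factor was mapped by chromatin immunoprecipitation and sequencing in wandering larvae of the third instar. Whole animals of both sexes were pooled, from a stable transgenic line in which GFP is joined to the C terminus of Cnc. The description names an antibody against GFP, while the antibody tag of the labels reads only cnc, and 2 biological replicates formed the 1 group. No untagged, untreated or other group was analysed here, so nothing below compares conditions. Peaks from whole larvae join all tissues, and a peak in few cells cannot be told apart from a weaker one in many.

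The gaps between the start sites of 4 pairs are shown because their summits were the highest among gaps of up to 300 bp free of exons. The sequence is that of the RefSeq assembly on build dm6, plus strand, 5′ to 3′, with the start site of the minus-strand gene just before the first base and that of the plus-strand gene just after the last. Capitals mark matches on either strand to the DRE word TATCGATA, the BEAF core CGATA contained in it, the motif 1 core GGTCACAC of fly housekeeping promoters, the Cnc-Maf word TGACNNNGC and the AP-1 word TGANTCA. The Tcs5/CHMP2B gap (chr3L:5139396-5139618) had its summit at base 105 of 223, and the Atat/Shc gap (chr3L:9426759-9427009) at base 100 of 251. In the CG13390/CG17294 gap (chr2L:8376798-8377034) the summit was base 106 of 237, and in the CG7601/CIA30 gap (chr3R:29736746-29736964) base 104 of 219.
Tcs5/CHMP2B: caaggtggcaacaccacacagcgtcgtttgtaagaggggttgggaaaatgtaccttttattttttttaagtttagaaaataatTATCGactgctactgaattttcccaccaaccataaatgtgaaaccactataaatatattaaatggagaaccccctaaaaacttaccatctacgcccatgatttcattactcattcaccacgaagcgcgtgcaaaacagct
Atat/Shc: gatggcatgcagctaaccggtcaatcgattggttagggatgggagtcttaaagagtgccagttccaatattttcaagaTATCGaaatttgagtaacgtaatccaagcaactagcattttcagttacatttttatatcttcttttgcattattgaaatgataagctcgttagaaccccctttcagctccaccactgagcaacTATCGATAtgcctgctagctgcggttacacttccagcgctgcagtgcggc
CG13390/CG17294: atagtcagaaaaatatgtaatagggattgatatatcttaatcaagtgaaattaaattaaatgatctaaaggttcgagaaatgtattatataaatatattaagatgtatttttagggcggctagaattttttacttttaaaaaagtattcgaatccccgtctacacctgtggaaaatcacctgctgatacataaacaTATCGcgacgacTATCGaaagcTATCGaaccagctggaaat
CG7601/CIA30: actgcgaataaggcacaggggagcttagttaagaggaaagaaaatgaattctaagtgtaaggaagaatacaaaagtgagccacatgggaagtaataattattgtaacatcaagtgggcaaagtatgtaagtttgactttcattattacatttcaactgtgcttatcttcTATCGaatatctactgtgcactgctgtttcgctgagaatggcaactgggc

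A further 3 gaps are shown because a named word lay within 50 bp of the summit. The slmb/CG5793 gap (chr3R:21127486-21127572, summit at base 38 of 87) opened with the DRE word and also held the motif 1 core. The Vha55/Snx3 gap (chr3R:12627830-12628030, summit at base 143 of 201) held the DRE word near its plus-strand end. The Bdp1/CG6565 gap (chr2L:13373891-13374018, summit at base 95 of 128) held the Cnc-Maf word on the minus strand.
slmb/CG5793: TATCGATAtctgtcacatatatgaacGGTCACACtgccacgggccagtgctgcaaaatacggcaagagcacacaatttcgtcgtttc
Vha55/Snx3: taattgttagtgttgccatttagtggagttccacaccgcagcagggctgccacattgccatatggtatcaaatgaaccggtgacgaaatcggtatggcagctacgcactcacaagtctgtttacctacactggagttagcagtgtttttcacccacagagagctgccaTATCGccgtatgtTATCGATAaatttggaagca
Bdp1/CG6565: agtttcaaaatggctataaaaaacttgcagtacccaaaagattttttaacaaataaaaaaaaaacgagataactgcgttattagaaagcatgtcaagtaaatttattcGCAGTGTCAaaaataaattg

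The sequences vary widely in base composition. G and C made up 26.6% of the Bdp1/CG6565 gap and 30.8% of the CG13390/CG17294 gap, but 43.0% of the Atat/Shc gap and 47.1% of the slmb/CG5793 gap. The Bdp1/CG6565 gap held no BEAF core, while the other 6 printed gaps held at least 1. None of the 7 held the AP-1 word.

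Peak height is given as the signal value that the authors deposited, a score against a control, and the sources used here do not give its scale. It ranks peaks within 1 list, and values below are from the pooled call of both replicates unless a replicate is named. The highest divergent summit lay between Ugalt, which encodes a transporter of UDP-galactose, and eIF2Bbeta, a subunit of the exchange factor of translation initiation (chrX:2703680-2704112). Its signal value was 7252 in the pooled call, 4540 in replicate 1 and 2829 in replicate 2. The summit was 17 bp from the Ugalt start site and 702 bp from that of eIF2Bbeta. Both replicates placed it there, at 2703869 and 2703861.

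The summit between Tcs5, a kinase gene of the complex that modifies tRNA, and CHMP2B, an ESCRT-III subunit, reached 5796 (3462 in replicate 1, 2307 in replicate 2). It lay 105 bp from one start site and 119 bp from the other. The pair CG5611/Mtl, with the small GTPase gene Mtl, had 4368 (2590 and 1782), at 176 bp from each start site. Atat, an alpha-tubulin acetyltransferase gene, and Shc, an adaptor of receptor tyrosine kinases, shared a summit of 4358 (2565 and 1804), 100 and 152 bp from their start sites. These 3 summits lay at least 100 bp from both start sites in gaps of 224 to 352 bp, unlike the Ugalt/eIF2Bbeta summit.

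Genes of mitochondria were on the same list of the 12 highest. The summit of mRpL41, a mitochondrial ribosomal protein gene, and CG8079 reached 4328 (2438 in replicate 1, 1935 in replicate 2). That of CG7601 and CIA30, a gene for assembly of respiratory complex I, reached 4078 (2273 and 1828). The arginine methyltransferase gene Art3 and the mitochondrial ribosomal gene mRpS10 shared a summit of 3859 (2064 and 1812). In all 12, the value in replicate 1 was above that in replicate 2. That order held for 885 of the 1276 divergent summits found in both replicate lists (69.4%), and for 64.1% of all reproducible peaks, and each list has its own scale.

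The other 5 of the 12 were CG13390/CG17294 (4081 in the pooled call, 2531 in replicate 1 and 1633 in replicate 2), Chro/Ssl1 (4039, 2290 and 1799), CG8372/CG8360 (3511, 2003 and 1420), SLC5A11/CG8419 (3497, 1942 and 1557) and Pdrg1/Pal1 (3466, 1851 and 1608). Chro encodes a chromodomain protein and Ssl1 a subunit of the general factor TFIIH. A further coding start site lay between the pair at Chro/Ssl1 and at CG8372/CG8360. None of the 12 summit windows, 50 bp to either side of the summit, held the DRE or the Cnc-Maf word, and the SLC5A11/CG8419 window held the AP-1 word.

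As a class, divergent summits had a higher median signal value than summits at one-sided promoters, but not in gaps of every width. Their median signal value was 491 (exact 95% interval of the median 464 to 517), with quartiles at 309 and 803. The 1598 summits upstream of a coding start site in 1 direction only had a median of 362 (349 to 375), a ratio of 1.36 (interval 1.24 to 1.48). In gaps with no further coding start site, the divergent median was 431 (390 to 538) under 200 bp and 635 (579.5 to 697.6) at 200 to 400 bp. It was 373 (339 to 407) at 400 to 600 bp, 354 (319 to 385) at 600 to 1000 bp and 404 (278 to 561) at 1000 to 2000 bp. The intervals of these gaps from 400 bp up overlap that of one-directional summits. The 930 summits downstream of the nearest coding start site had a median of 301, and the 2321 summits over 1000 bp from any coding start site had 328. The order of divergent and one-directional summits was the same in each replicate list, at 277 against 197 in replicate 1 and 239 against 176 in replicate 2. The intervals cover counting error over peaks only, and peaks are not replicates, so no test was made.

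**Figure D1:**
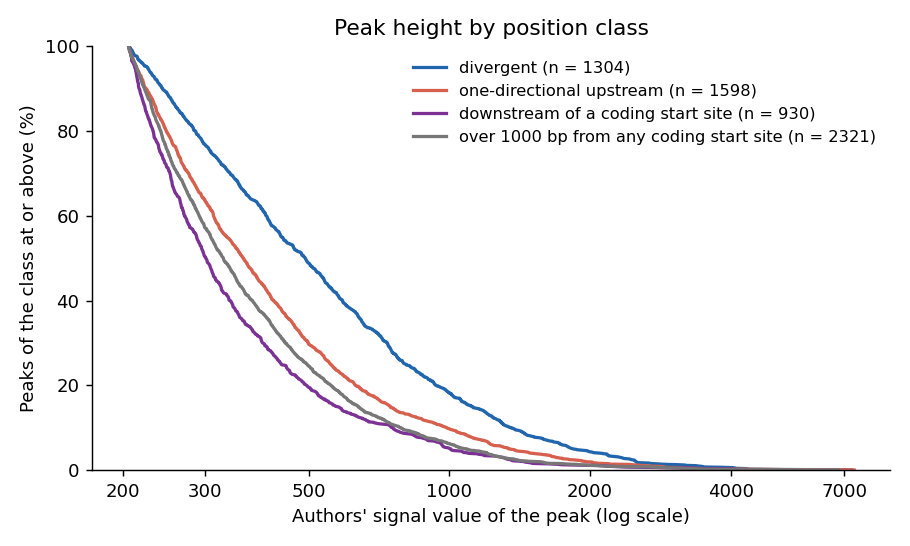
The share of peaks (y axis, percent of the class) at or above each signal value of the authors (x axis, log scale) is drawn for the 4 position classes of the reproducible list. The curve of the 1304 divergent summits lies to the right of the others over most of the range, with a median of 491 against 362 for one-directional upstream summits.

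Divergent summits made up 46 of the 100 highest reproducible peaks and 209 of the 500 highest (41.8%), but 52 of the 500 lowest (10.4%). With the list split by signal value into 5 parts of equal size, their share went from 37.8% in the highest part through 23.4%, 18.5% and 15.0% to 11.2%. Of the divergent summits, 465 (35.7%) stood in the highest of the 5 parts, and of the one-directional summits 19.4%. In the pooled list, which runs further down to 30000 peaks, divergent summits were 764 of the 23847 peaks below the reproducible list (3.20%). The share of peaks with the commonest width of 364 bp differed as well, though the median width was 364 bp in every class. Of the divergent peaks, 597 (45.8%) had that width, against 65.3% of one-directional, 79.6% of downstream and 72.1% of distant peaks. The part of peak height in these shares was not tested.

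The summits nearest to the threshold of the reproducible list differed little. Just inside it were the pairs pst/Sec63 (206.8), wts/dj-1beta (206.3), Cypl/Hipk (206.2) and Ubi-p63E/Sc2 (206.1). Just outside it, in the pooled list only, were a summit of stau/Spn55B (205.6), one of spn-A with CG7950 and Rpp14a (205.4), one of Klp64D/Cyt-c1 (205.2) and one of Cpes/CG5569 (205). The first 3 of these gaps also held a higher, reproducible summit. The gene wts encodes the Hippo pathway kinase Warts, and dj-1beta a counterpart of the Parkinson's disease gene DJ-1.

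The replicates placed most divergent summits alike, about as closely as they placed all reproducible peaks. Of the 1304, 1276 (97.9%) overlapped a peak in both replicate lists by at least 1 bp, against 97.6% of all reproducible peaks. This share is largely fixed by how the reproducible list was made. With each replicate list taken only to its 6153 highest peaks, 1090 (83.6%) were in both, against 72.8% of all reproducible peaks. That cut is by signal value, which is higher in divergent summits, and its part in this difference was not tested. The median shift between the replicate summits was 37 bp, against 38 bp for all reproducible peaks. In 776 of 1276 cases (60.8%) the shift was at most 50 bp. Across these summits the signal values of the replicates had a Spearman correlation of 0.841, which describes peaks of the same pair of libraries. In 1140 cases (89.3%) the values were within a factor of 2, against 87.7% of all peaks.

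**Figure D2:**
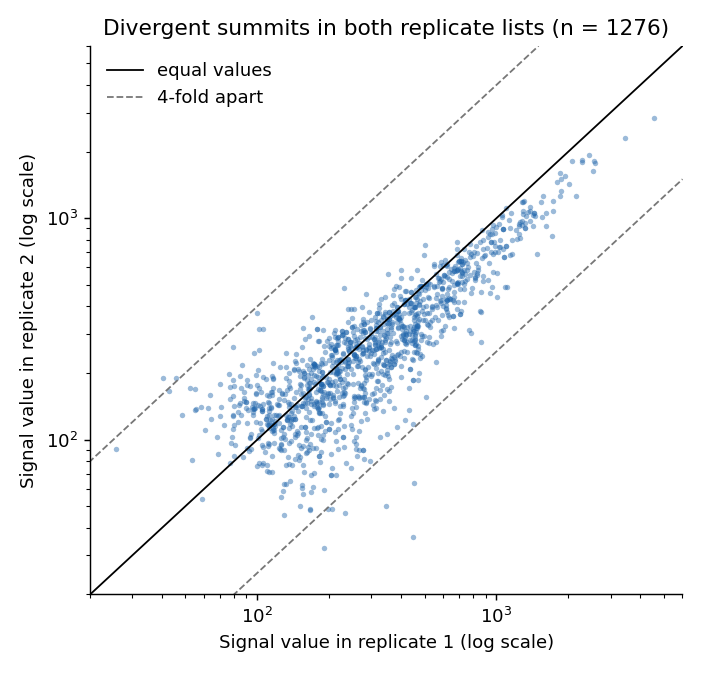
Each point is 1 of the 1276 divergent summits found in both replicate lists, with the signal value of the overlapping peak in replicate 1 (x axis, log scale) and in replicate 2 (y axis, log scale). The solid line marks equal values and the dashed lines values 4-fold apart. All but 9 points lie between the dashed lines.

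The 9 divergent summits past a factor of 4 were led by AsnRS/DCTN6-p27, a pair of an asparaginyl-tRNA synthetase gene and a dynactin subunit gene. Its pooled value was 849, with 447 in replicate 1 and 36.3 in replicate 2, a ratio of 12.3. The replicate 2 peak had its summit 184 bp from that of replicate 1 and outside the pooled peak, so the low value is that of an overlapping neighbour. The pair CG5776/spict had 630 pooled, 451 in replicate 1 and 63.6 in replicate 2. The pair velo/Sbds had 378, 346 and 50.3, with replicate summits 165 bp apart. Of the 9, 7 were higher in replicate 1. The reverse order was found at eIF3l/Nrx-IV (40.3 in replicate 1, 190 in replicate 2) and ImpE3/CG10903 (45.6 and 190, with summits 221 bp apart). Both replicate summits lay inside the pooled peak in 5 of the 9 cases, and not at AsnRS/DCTN6-p27, CG5776/spict, velo/Sbds and ImpE3/CG10903. Singling out these 9 was decided after their values were seen.

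The share of pairs with a summit rose and fell with the distance between the start sites. Among neighbouring divergent coding start sites up to 2000 bp apart with no coding start site between them, 990 of 2903 pairs had a reproducible summit in the gap (34.1%, exact 95% interval 32.4 to 35.9). A further 397 pairs (13.7%) had a summit in the pooled list only, and 1516 (52.2%) had none in either. The share was 15.0% (12.6 to 17.8) for the 752 pairs under 200 bp apart and 58.3% (55.0 to 61.6) for the 893 pairs at 200 to 400 bp, each range leaving out its upper bound. It was 44.9% of 450 pairs at 400 to 600 bp, 30.4% of 414 at 600 to 1000 bp, and 7.11% of 394 at 1000 to 2000 bp. Only summits within 1000 bp of both start sites counted, so in gaps over 1000 bp the ends could not score. That rule lowers the last share and adds to the pairs with no summit in either list. In steps of 50 bp the highest share was at 300 to 349 bp, with 125 of 201 pairs (62.2%, 55.1 to 68.9).

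**Figure D3:**
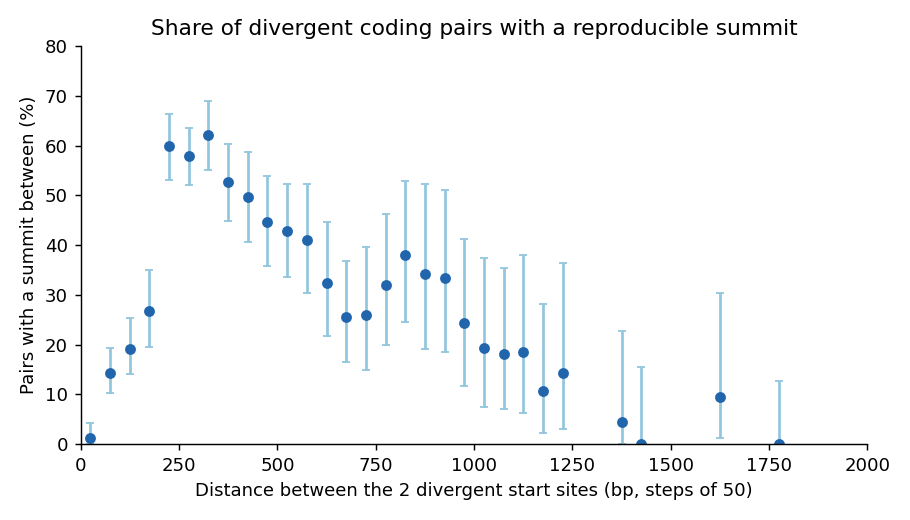
The share of divergent coding pairs with a reproducible summit in the gap (y axis, percent, with exact 95% intervals) is plotted against the distance between the start sites (x axis, bp, in steps of 50 with at least 20 pairs each). The share is 1.20% below 50 bp, stands highest at 62.2% in the step from 300 bp, and is low again beyond 1000 bp. Beyond 1000 bp the ends of a gap could not score, since a summit had to lie within 1000 bp of both start sites.

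A short gap offers fewer positions for a summit, so each pair was also scored by whether a summit lay within 200 bp of its midpoint, whether between the start sites or past one of them. This count was added after the shares were seen. It gave 39.1% of pairs under 200 bp apart, 61.4% at 200 to 400 bp, 40.0% at 400 to 600 bp, 12.3% at 600 to 1000 bp and 2.79% at 1000 to 2000 bp. The pairs at 200 to 400 bp stayed highest, and the pairs under 200 bp were then close to those at 400 to 600 bp. The window covers the whole of gaps up to 400 bp but leaves out the ends of wider ones. It therefore cannot bear on the fall of the share at wider spacings. Within pairs that had a summit, the median signal value was also highest at 200 to 400 bp, at 635, against 431 for shorter gaps and 354 to 404 for longer ones.

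The pairs with the smallest spacing that still had a summit were RanBP3/Rpt5 (42 bp apart, signal value 912, with 398 in replicate 1 and 536 in replicate 2), CG11593/Rcd5 (47 bp, 759.5) and CG6707/CG46387 (51 bp, 409). Rpt5 encodes an ATPase subunit of the proteasome, and the RanBP3/Rpt5 window held the DRE word. The largest spacings were rt/CG7377 (1925 bp, 218), Mtpbeta/ken (1670 bp, 309.7) and Syx1A/CG10694 (1628 bp, 561). The gene rt encodes a protein O-mannosyltransferase and Syx1A a syntaxin of synaptic vesicle fusion.

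Divergent summits sat closer to a start site than one-directional summits did. The median distance to the nearer start site was 108 bp (exact interval of the median 103 to 112), with quartiles at 61 and 165 bp. The one-directional upstream summits had a median of 203 bp (196 to 214), with quartiles at 110 and 364 bp. A distance of 50 to 150 bp was found for 50.8% of divergent summits (48.0 to 53.5) and 23.5% of one-directional summits (21.5 to 25.7). A divergent summit has a start site on both sides, so the distance to the nearer one is shortened by how the class is defined.

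In gaps of 200 to 400 bp the summits sat near the middle. Of 543 summits there, 414 (76.2%) lay in the central part that makes up 50% of the gap, and the median distances were 98 bp to the nearer and 187 bp to the farther start site. At 400 to 600 bp 67.1% were central, with a median of 172 bp to the nearer start site. At 600 to 1000 bp 31.5% were central, and the medians were 147 bp to the nearer and 617 bp to the farther start site. In these wide gaps most summits stood closer to a start site than to the midpoint. Gaps under 200 bp had 52.2% of summits in the central part, close to its 50% of the length.

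**Figure D4:**
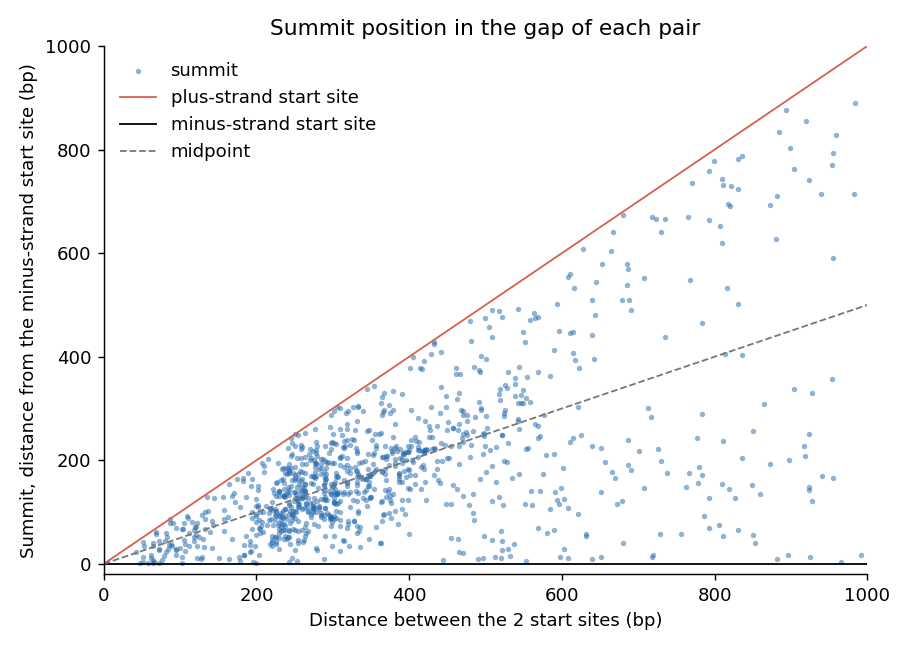
Each point is 1 summit in the gap of a pair with no coding start site between, placed by the distance between the start sites (x axis, bp, up to 1000) and its own distance from the minus-strand start site (y axis, bp). The solid lines mark the start sites and the dashed line the midpoint. The points gather around the midpoint at spacings of 200 to 400 bp, where 76.2% are central, and separate toward the lines of the start sites at 600 to 1000 bp, where 31.5% are.

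More than 1 reproducible summit lay in 59 of the 990 gaps with a summit. The spacing of these pairs was 246 to 1086 bp, with a median of 496 bp. The outer summits stood a median of 81 bp from their own start site and 205 bp from each other. No summits of any of the 4 lists were closer to each other than 199 bp, so gaps below that width could hold only 1. Examples were Fur1/Vps33B, a pair of a furin protease gene and a vacuolar sorting gene, with 1907 on the Fur1 side and 503 on the Vps33B side. MED7/Cap-H2, a Mediator subunit gene and a condensin II subunit gene, had 1799 and 749. Xe7/Atg17, with an autophagy initiation gene, had 1727 and 269. The gap of Vha13/Nup58 had 3 summits, of 319, 307 and 301. Such summits of the pooled call were not always separate peaks in the replicates. Both MED7/Cap-H2 summits took the same replicate values (1095 in replicate 1, 745.4 in replicate 2). All 3 Vha13/Nup58 summits shared a replicate 1 peak of 239.5. In replicate 2 the 319 and 301 summits shared a peak of 214.8, and the 307 summit overlapped none.

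Across chromosomes the share of summits that were divergent was 25.4% on 3R (386 of 1522), 21.0% on 2R, 20.4% on 2L, 20.1% on 3L and 17.6% on the X (171 of 970). On chromosome 4 it was 5 of 39. The share of divergent pairs with a summit was also highest on 3R, at 41.6% (38.0 to 45.4), and was 27.6% on the X (23.6 to 31.9). It was 35.6% on 3L (31.6 to 39.7, which overlaps the interval of 3R), 32.6% on 2L and 30.5% on 2R, and 4 of 17 pairs on chromosome 4 had one. Pairs with histone genes were kept in these shares.

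A summit lay within 1000 bp of a start site for 4449 of 13945 coding genes (31.9%). Genes in a divergent pair had one in 2929 of 5754 cases (50.9%, 49.6 to 52.2) and the other genes in 1520 of 8191 (18.6%, 17.7 to 19.4). A summit in the gap itself was found for 2024 of the 5754 genes (35.2%). A summit within 1000 bp of a divergent start site may also be within that distance of its partner, so a single peak can count for both genes.

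Gene families described here were chosen by symbol, with earlier results of these data known, and are given as counts beside the 34.1% of all divergent pairs. Since that share depends on spacing, each list is also set beside the other pairs at the same spacings, in steps of 50 bp up to 1000 bp and 1 range above, a share added after the counts were seen. Splicing genes had a summit in 18 of 30 pairs (60%, 40.6 to 77.3), against 40.0% of other pairs at their spacings, with SmB, a core protein of the spliceosome, at SmB/KdelR (867). Autophagy genes had one in 11 of 15 pairs (73.3%, 44.9 to 92.2, others 45.7%), led by Atg17 at Xe7/Atg17 (1727), ERR/Atg18a (1631) and CG5645/Atg12 (1194). ESCRT and Vps genes of membrane sorting had one in 11 of 20 pairs (55%, 31.5 to 76.9, others 38.7%), led by Tcs5/CHMP2B, Vps36/Liprin-beta (2298) and Fur1/Vps33B (1907). Chaperonin and heat shock protein genes had 9 of 14 pairs (64.3%, 35.1 to 87.2, others 40.4%), with Hsc70-5/CG8531 (1254) above tefu/Hsc70-4 (538). Peroxin genes had 7 of 12 (58.3%, 27.7 to 84.8, others 43.1%), led by Taf5/Pex6 (1445) and Pex23/SCCRO4 (1427). Of these 5 lists, the interval of the splicing list lay just above the share of the other pairs at its spacings, and the other 4 intervals included theirs. Symbols place LSm1, known for mRNA decay, in the splicing list.

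Genes of protein synthesis and turnover followed at shares of 41.8% to 50%. Mitochondrial ribosomal protein genes had a summit in 30 of 60 pairs (50%, 36.8 to 63.2), against 33.7% of other pairs at their spacings, and 59 of the 73 genes of the list were in a divergent pair. Cytosolic ribosomal protein genes had one in 27 of 55 pairs (49.1%, 35.4 to 62.9, others 36.4%). They were led by RpL32/CG7943 (2445), RpL34b/CG8132 (1665) and CG17271/RpS20 (1436). Proteasome genes had 14 of 30 (46.7%, 28.3 to 65.7, others 35.0%), among them Rpn6/ave (1381), Slbp/Rpn2 (1216) and Prosbeta3/Iru (1053). Translation initiation factors had 10 of 22 (45.5%, others 36.2%), tRNA synthetases 11 of 25 (44%, others 34.1%) and respiratory chain genes 23 of 53 (43.4%, others 34.1%). Transcription and Mediator genes had 23 of 55 (41.8%, others 35.8%), led by elm/MED27 (2440) and MED30/Rev1 (2314). Among these 7 lists the interval of mitochondrial ribosomal protein genes lay above the share of the other pairs, and the other 6 intervals included it.

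The remaining lists of cell machinery were small. Vacuolar ATPase genes had a summit in 8 of 16 pairs (50%, others at their spacings 42.6%). Genes with Rab symbols, which include the regulator Rab3GAP1, had 8 of 18 (44.4%, others 30.1%). DNA replication genes had 5 of 20 (25%, 8.66 to 49.1, others 36.0%), with qkr58E-3/PolE4 (1237) highest. Genes of mitochondrial import had 2 of 7 pairs (28.6%, 3.67 to 71.0, others 36.0%), among them a pair with Tom7 (461).

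Gene families with tissue-restricted or repeated members seldom had a summit in a shared gap. Cuticle protein genes had 0 of 18 pairs, for which the interval reaches 18.5%, just below the 19.2% of other pairs at their wide spacings. Chemosensory receptor genes had 1 of 32 (3.13%, 0.0791 to 16.2, others 28.8%), at Idua/Gr32a (321). Histone genes had 1 of 45 pairs (2.22%, 0.0563 to 11.8, others 22.5%), at ball/His2Av, and 0 of the 42 pairs with histone genes on both sides. The highest replicate peaks overlapping this ball/His2Av peak (318 in the pooled call) had their summits outside the gap, on the ball side. Most histone genes lie in a repeated array, and the sources used here do not say how reads matching more than 1 copy were handled. The spacing of these families differed from the 344 bp median of all pairs, with medians of 1200 bp for cuticle, 620.5 bp for chemosensory and 129 bp for histone pairs. Without all pairs that hold a histone gene, 989 of 2858 pairs had a summit (34.6%).

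Genes of detoxification and of the Cnc pathway were few among divergent pairs. Glutathione S-transferases had a summit in 0 of 8 pairs, for which the interval reaches 36.9% (others at their spacings 30.6%), and cytochrome P450 genes in 2 of 16 (12.5%, others 24.2%), at Cyp9f2/CG5167 (285) and Cyp4d14/Cyp4d2 (272). Antioxidant genes had 5 of 12 (41.7%, 15.2 to 72.3, others 39.9%). Sod2, the mitochondrial superoxide dismutase, shared a summit of 1231 with Arp53D (633 in replicate 1, 570 in replicate 2). The glutaredoxin gene Grx3 shared 720 with Nnp-1, and Gclm, the modifier subunit of the enzyme that starts glutathione synthesis, shared 627 with CG17625.

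Keap1, which encodes the inhibitor of Cnc, lies head to head with kuk, the gene of a nuclear envelope protein, at a spacing of 299 bp. The higher of the 2 summits in the gap stood 35 bp from the Keap1 start site and 264 bp from that of kuk (chr3R:17079817-17080124). Its signal value was 740 in the pooled call, 354 in replicate 1 and 376 in replicate 2, and the replicate summits were at 17079965 and 17079980. The lower summit, of 212, stood 64 bp from the kuk start site and overlapped the same replicate peaks. The other bZIP pair with a summit was Mondo/crc, with crc the fly ATF4, at 242 (132 and 124). The list of bZIP and Cnc partner genes had 6 divergent pairs in all, so 2 of 6 gives an interval of 4.33% to 77.7%, against 37.8% of other pairs at their spacings.

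Words known from housekeeping promoters were more frequent in windows of 50 bp to either side of divergent summits than in other windows. The DRE word, TATCGATA, lay in 76 of 1304 divergent windows (5.83%, 4.62 to 7.24). It lay in 58 one-directional windows (3.63%, 2.77 to 4.67), in 4 windows over 1000 bp from a coding start site (0.172%), and in 2.70% of all reproducible windows. Windows of the same width centred 1000 bp to either side of divergent summits held it in 0.192% of cases. By how the class is defined, these flanks are centred at or past a start site on both sides. The part of that in the contrasts with flanks was not tested. The intervals of divergent and one-directional windows overlap slightly. The BEAF core, CGATA, which lies inside the DRE word, was in 26.8% of divergent windows (24.4 to 29.3), 21.2% of one-directional windows (19.2 to 23.2) and 12.1% of flanks. The motif 1 core, GGTCACAC, was in 2.07%, 0.939% and 0.192%, with overlapping intervals of the first pair, and in 2.04% of windows downstream of a start site. Both strands were searched for every word.

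The word of the Cnc-Maf dimer was rare. TGACNNNGC lay in 30 divergent windows (2.30%, 1.56 to 3.27), in 2.82% of one-directional windows and in 3.57% of flanks (2.89 to 4.35). The flanks held more G and C than the divergent windows, at a mean of 47.1% against 32.0%. The part of base composition in the shares of this word was not tested. The strict form TGACTCAGC was in 0 of 1304 divergent windows, for which the interval reaches 0.283%, and in 6 windows of all reproducible summits. The AP-1 word, TGANTCA, which lies inside the strict form, was in 2.38% of divergent windows, 1.88% of one-directional windows and 1.76% of flanks. Divergent summits with the Cnc-Maf word had a median signal value of 359 (exact interval 243.9 to 529.8) against 493 without it (465 to 518), so the intervals overlap fully. The highest of them were Bdp1/CG6565 (2493, with 1428 in replicate 1 and 1033 in replicate 2), Gcn5/ver (2193), CG9662/Ptpa (1169) and a summit at ball/His2Av (1011). Bdp1 encodes a subunit of the RNA polymerase III factor TFIIIB, and Gcn5 a histone acetyltransferase.

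**Figure D5:**
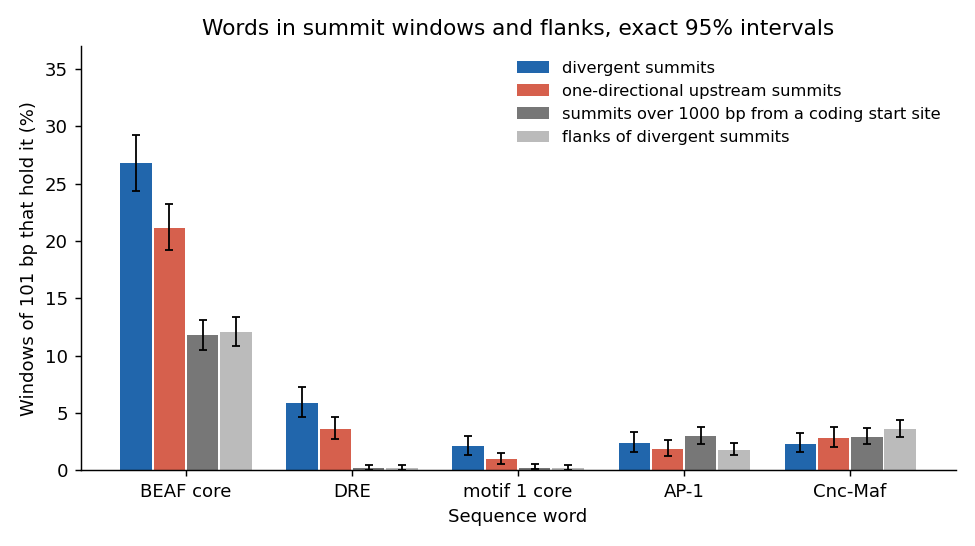
Bars give the share of windows of 101 bp (y axis, percent) that hold each sequence word (x axis), for divergent, one-directional and distant summits and for flanks of divergent summits. Error bars are exact 95% intervals over windows. The BEAF core (26.8%) and the DRE (5.83%) stand highest in divergent windows. The Cnc-Maf word (2.30%) does not stand above the flanks, which hold more G and C.

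Divergent summits with the DRE word were not higher than the others. Their median signal value was 410 (353 to 487), against 497 (466 to 525.5) without the word, and these intervals overlap. With the motif 1 core the median was lower, at 301 (262 to 424) against 495 (465 to 522.5). With the BEAF core it was also lower, at 429 (391 to 465) against 518 (491 to 551). High summits with the DRE word included Su(P)/CG4101 (1386, with 833 in replicate 1 and 565 in replicate 2) and SF2/pad (1305, with 620 and 618). The sequences of slmb/CG5793 and Vha55/Snx3 printed above are further cases. The former, with the F-box gene slmb, reached 990.5 (482 and 493), and the latter, with a vacuolar ATPase gene, 928 (554 and 357).

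The windows were rich in A and T. G and C made up a mean of 32.0% of divergent summit windows against 47.1% of their flanks, and 34.0% against 43.2% at one-directional summits. The flanks of divergent summits lie at or past a start site on both sides by definition, so the flanks of these classes are not alike. All words of 7 bases were ranked by the difference in share between divergent windows and other windows. Those named here were picked from that ranking for large differences, so the differences are not a test. The word AATTTAA was in 16.8% of divergent windows, 10.6% of one-directional windows and 3.14% of flanks, and TTAAAAA in 20.6%, 15.0% and 3.64%. The word ATCGATA, which overlaps the DRE, was in 11.7%, 7.89% and 0.844%. The word GATAAGA was less frequent in divergent than in one-directional windows, at 1.30% against 3.44%, and the TATA word, TATAAA, more frequent, at 26.1% against 22.0%. A and T content moves with these words, and its part in their shares was not tested.

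Gaps that had a summit were then compared with gaps in the same range of spacing that had none. The words were searched in whole gaps, wherever a summit lay. Gaps within a range still differ in length, and the part of length in the shares of words was not tested. At 200 to 400 bp the DRE word was in 114 of 521 gaps with a summit (21.9%, 18.4 to 25.7) and 51 of 372 gaps without (13.7%, 10.4 to 17.6). The motif 1 core was in 10.6% and 5.91%, but under 200 bp in 4.42% with a summit and 6.89% without. The Cnc-Maf word was in 6.72% and 5.91%, with intervals that overlap almost fully. The GAGA word, GAGAGAG, was in 3 gaps with a summit (0.576%, 0.119 to 1.67) and 13 without (3.49%, 1.87 to 5.90). That order turned in wider gaps, with 13.5% against 12.2% at 600 to 1000 bp and 32.1% against 20.5% at 1000 to 2000 bp. G and C content was 33.3% ± 4.66 (SD over 521 gaps) with a summit and 35.8% ± 6.76 (SD over 372 gaps) without.

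The DRE word was more frequent in gaps with a summit in each of the 5 ranges of spacing. The exact intervals with and without a summit were apart at 200 to 400 bp and at 600 to 1000 bp (20.2 to 36.5 against 8.61 to 16.5). They overlapped under 200 bp, at 400 to 600 bp and at 1000 to 2000 bp. The shares with and without a summit were 18.6% and 12.1% under 200 bp, 25.3% and 18.1% at 400 to 600 bp, 27.8% and 12.2% at 600 to 1000 bp, and 21.4% and 13.1% at 1000 to 2000 bp, the last over 28 gaps with a summit. With peak sets made from replicate 2 alone or replicate 1 alone, the shares at 200 to 400 bp were 22.9% against 12.7% and 22.1% against 13.4%. Gaps with a summit also had less G and C in each range. The part of base composition and of gap length in the DRE shares was not tested.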

How the data were processed

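Peak lists on build dm6 were used. Each replicate had a list called on its own alignments against a control, a pooled list was called on both, and the reproducible list was derived from the replicate lists and a further list, per the deposited file lists. The sources used here name no aligner, caller, version or reproducibility threshold. Peak heights are the authors' deposited signal values. The −log10 q values were also deposited by the authors. Neither was rescaled, and values were compared only within a list, with no mean or SD over replicates. Read numbers were not used, so depth is unknown, and exact intervals cover counting error only.

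Start sites are those of all transcripts of protein-coding genes in Ensembl release 115 on 6 nuclear chromosomes. Sequence is from the RefSeq assembly of the same build. Coordinates are 1-based. A summit's replicate value is that of the highest replicate peak overlapping it by at least 1 bp, so neighbouring summits can share 1 value. Shares have Clopper-Pearson intervals and medians order-statistic intervals, both at 95%. The interval of a ratio of medians or of a difference of shares sets the opposite bounds of both intervals against each other. Such an interval is wider than one at 95%. The steps were tested on simulated data. Python 3.11.15, numpy 2.4.6, scipy 1.17.1 and matplotlib 3.10.9 were used. No test between groups or across peaks was made, and p-values were not computed.

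Pairs were named by a rule: the 12 highest divergent summits, up to 3 per gene list, the 3 smallest and 3 largest spacings, up to 4 with the Cnc-Maf word, gaps with 3 or more summits, and 4 on either side of the threshold. Pairs named for the DRE and AP-1 words, for several summits or for unequal replicates were added after their values were seen. The members and the 23 gene lists were chosen with earlier results of these data known. Alternatives left out each replicate by taking the 6153 highest peaks of the other, took the 3076 highest peaks, 500 bp in place of 1000 bp, only the most upstream start site of each gene, and windows of 25 or 100 bp. Lists on build dm3 were left out, and some pairs taken by the naming rule are not reported here.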

Additional observations from a re-analysis of the deposited data

How the results depend on the processing

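Of 47 values under alternative settings, 34 stayed within the interval of the value in the report and 13 lay outside it. For the signal ratio and the DRE difference that interval is wider than one at 95%. Most are shares, distances or positions, which have no direction to turn. The ratio of median signal values kept divergent summits higher under every setting tried for it. The DRE difference in gaps of 200 to 400 bp likewise kept gaps with a summit higher. With a replicate left out, the share of summits that were divergent was 21.1% to 21.6%, the share of pairs with a summit 33.0% to 33.7%, the distance to the nearer start site 104 to 107 bp, the ratio of median signal values 1.33 to 1.38, the DRE share 4.73% to 6.61% and the Cnc-Maf share 1.92% to 2.03%. The median position of the summit, in percent of the way from the midpoint to a start site, was 36.1% and became 36.4% to 39.4%. The share of pairs at 200 to 400 bp with a summit was 56.8% to 58.2%, and the DRE share of such gaps with a summit exceeded that without by 8.71 to 10.2 percentage points, against 8.17 in the report (interval 0.774 to 15.3). These last settings were chosen after seeing the data.

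Among the 3076 highest peaks, 28.7% of summits were divergent, 24.0% of pairs and 47.6% of pairs at 200 to 400 bp had a summit, the median position was 31.6% and the signal ratio 1.21. Fewer peaks leave fewer pairs with a summit by construction. With 500 bp in place of 1000 bp, 17.2% of summits were divergent and the median position was 29.2%, since wide gaps drop out. With only the most upstream start site of each gene, 15.9% were divergent. Narrower and wider windows hold fewer and more words by construction: the DRE share was 2.38% at 25 bp and 11.2% at 100 bp, and the Cnc-Maf share 0.920% and 4.91%. No paired analysis was possible because there is 1 group. Unknown depth limits what can be said of pairs without a summit: a summit was not called there, which does not show that binding is absent.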
